A study of Mus musculus with 12 samples.

Results

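Brown fat burns fuel to make heat, and 10 genes known for that task were followed here: Ucp1, Cidea, Dio2, Elovl3, Prdm16, Cox7a1, Cox8b, Adrb3, Ppara and Otop1. They were chosen by name, and all 10 were listed among the 16411 genes counted in mammary tissue. The edgeR expression filter kept 13191 genes for testing, and 9 of the 10 were among them (Elovl3 was not). RNA was sequenced in bulk from 6 mammary tumors and 6 benign mammary samples of untreated female mice of the MMTV-Neu-NDL-YD5 line, bred on FVB. In these mice the MMTV promoter drives an activated Neu (HER2) transgene in the mammary epithelium, and both groups carried it. Mice were heterozygous transgenics kept at 22 °C, watched for tumors from 10 weeks of age and collected by 20 weeks. Benign tissue was mammary fat pad without a visible tumor, taken from the site furthest from the tumor, so its anatomical site could differ between mice and is not given in the labels. The tumors and benign samples came from different mice.

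Brown and beige adipocytes respond to cold through noradrenaline, which acts on beta-adrenergic receptors and raises cyclic AMP. Lipolysis then supplies fatty acids to mitochondria, where the uncoupling protein UCP1 lets protons return across the inner membrane without making ATP, so that the energy is released as heat. Mouse mammary epithelium is embedded in fat pads that hold mostly white adipocytes, and beige or brown adipocytes occur in or near some of them.

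Promoter sequences are shown first for 4 members whose levels the results below turn on: Ucp1 and Dio2, for matches to cyclic AMP and nuclear receptor elements, and Cox7a1 and Cox8b, as subunit isoforms with the same order of levels among benign samples. They were taken from RefSeq promoter entries of GRCm38.p6, which held 7 of the 10 members (not Cidea, Elovl3 or Adrb3), and each shows the 250 bases before the annotated start, 5′ to 3′ on the gene's strand. The reference comes from another mouse strain than FVB. Capitals mark matches to AGGTCA (a nuclear receptor half-site), TGACG (the core of a cyclic AMP response element) or CANNTG (an E-box), searched on both strands. The Ucp1 window is chr8:83290098-83290347 on the plus strand, the Dio2 window chr12:90739039-90739288 on the minus strand, the Cox7a1 window chr7:30183921-30184170 on the plus strand and the Cox8b window chr7:140900447-140900696 on the minus strand.
Ucp1: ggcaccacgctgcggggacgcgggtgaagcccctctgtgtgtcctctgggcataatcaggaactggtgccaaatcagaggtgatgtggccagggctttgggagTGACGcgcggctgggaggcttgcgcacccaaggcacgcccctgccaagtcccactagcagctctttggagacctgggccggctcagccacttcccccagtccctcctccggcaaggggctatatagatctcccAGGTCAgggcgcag
Dio2: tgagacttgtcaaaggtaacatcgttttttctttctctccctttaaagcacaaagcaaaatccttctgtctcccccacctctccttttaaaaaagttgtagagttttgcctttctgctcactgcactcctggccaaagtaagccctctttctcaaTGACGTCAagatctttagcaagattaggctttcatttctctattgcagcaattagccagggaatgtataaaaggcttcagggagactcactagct
Cox7a1: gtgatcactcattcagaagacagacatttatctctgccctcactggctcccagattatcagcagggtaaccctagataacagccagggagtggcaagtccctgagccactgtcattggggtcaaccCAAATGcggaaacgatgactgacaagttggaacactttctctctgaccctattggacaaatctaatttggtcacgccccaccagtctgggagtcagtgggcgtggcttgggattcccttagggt
Cox8b: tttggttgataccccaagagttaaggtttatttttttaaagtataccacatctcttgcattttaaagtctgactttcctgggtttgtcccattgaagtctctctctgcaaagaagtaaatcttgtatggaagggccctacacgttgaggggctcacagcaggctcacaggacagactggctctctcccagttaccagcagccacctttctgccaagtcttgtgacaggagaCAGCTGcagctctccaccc

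In Ucp1, AGGTCA began 14 bases before the start and TGACG 147 bases before it. In Dio2, the full cyclic AMP element TGACGTCA, which contains a TGACG match on each strand, began 95 bases before the start, and TATAAA began 30 bases before it. Cox7a1 and Cox8b each held 1 E-box, 124 and 19 bases before the start. Of 32851 windows of the same length, 14% held AGGTCA, 17.8% TGACG, 1.55% TGACGTCA, 66.2% CANNTG and 12.4% TATAAA. These matches describe the letters and were not tied to the counts.

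Total counts per sample ran from 5240853 to 8170687 in benign tissue and from 6111393 to 8588567 in tumors. Values are given as CPM, counts scaled to library size with edgeR's TMM method, and 3 counts, the floor used for lower bounds, equal 0.414 CPM at the mean library size. The labelled tissue was checked with marker lists. The 10 adipocyte genes summed to 9659 to 24397 CPM in benign tissue and 239.7 to 375 CPM in tumors, and the 8 epithelial genes (3 lower and 4 higher in tumors by the test below) to 982 to 2446 and 2104 to 3942 CPM. Benign samples 3, 4 and 6 also held skeletal muscle transcripts: 13 muscle genes took 5.51%, 3.25% and 7.86% of their counts, against 0.0036%, 0.0046% and 0.0427% in benign samples 1, 2 and 5. In tumors none of the adipocyte genes was at 0, and 3 to 9 of the 13 muscle genes were at 0 in each tumor but tumor 5. Fold changes of the members tested are therefore also given without benign samples 3, 4 and 6. All 10 members were highest in benign sample 4 and second in benign sample 6. Leaving these samples out thus lowers the benign level of each member, whatever its source.

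Of the 9 members tested, 7 were lower in tumors and 0 were higher (0 also by DESeq2, and at an unadjusted p under 0.05), at an adjusted p-value under 0.1 by edgeR's quasi-likelihood test with Benjamini-Hochberg adjustment (adjusted p-values below are of this test). Adrb3, Ucp1, Otop1, Cidea and Cox8b fell the most, Cox7a1 and Prdm16 fell less, and Dio2 and Ppara did not pass the test. Adrb3 and Otop1 reached the filter level in 6 benign samples and 1 tumor each, and Ucp1 in 5 and 1. Adrb3, Otop1 and Ucp1 thus entered the test mainly through benign tissue and could hardly be called higher in tumors. Cidea and Ppara reached the level in 6 benign samples and 4 tumors, Cox8b in 6 and 3, and Prdm16 in 6 and 2. They too leaned on benign tissue to enter, so the counts of lower and higher members were limited in advance. Of all 13191 genes tested, 34.8% were lower and 28.2% were higher. The median log2 fold change was -5.65 over the 9 members and -0.06 over all genes tested. All 6 tumors lay below all 6 benign samples for 4 members (Cidea, Cox8b, Adrb3 and Otop1), as they did for 21.2% of genes tested. In bulk tissue, fewer adipocytes or other cells that carry these transcripts, such as muscle, and less RNA per cell cannot be told apart.

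**Figure D1:**
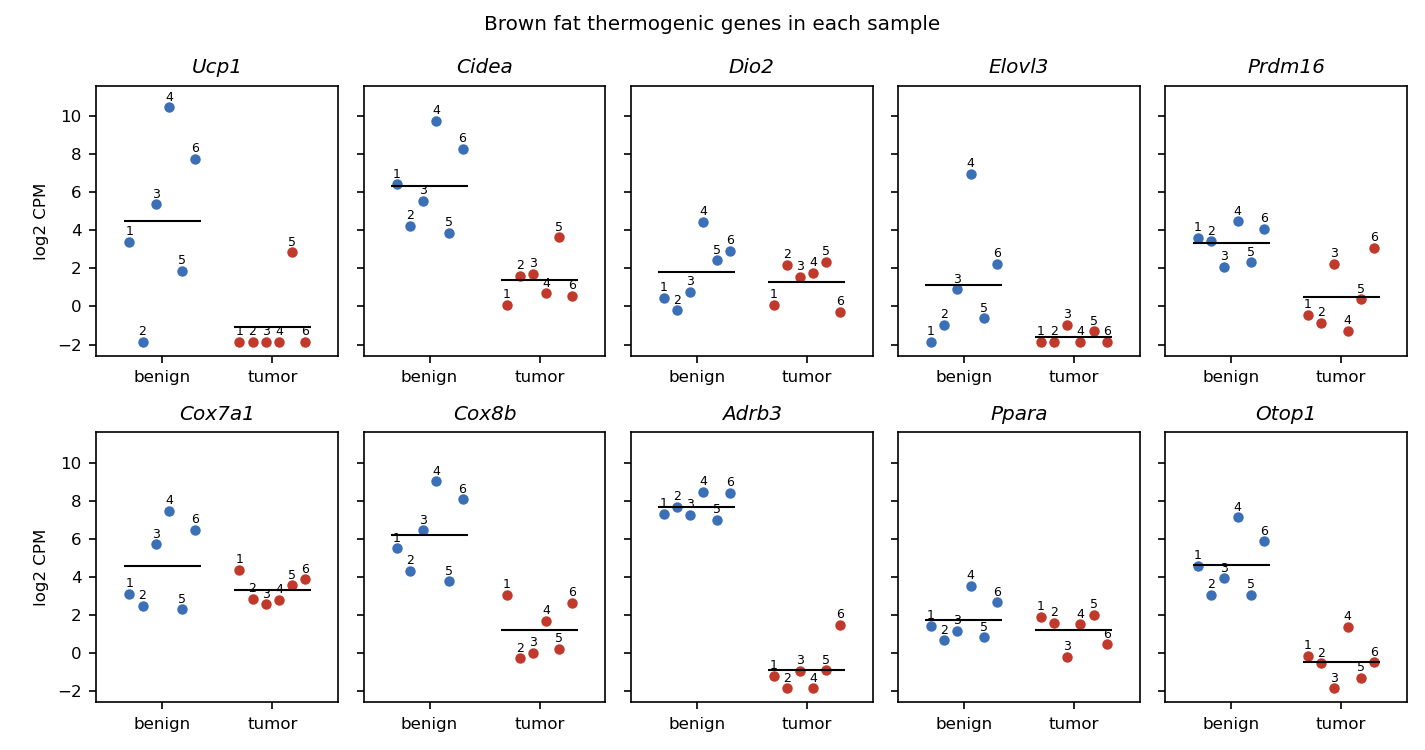
Each panel plots the log2 CPM (2 counts added) of 1 gene in the 6 benign samples (blue) and the 6 tumors (red), with the sample number above each point and a line at the group mean. Benign sample 4 is the highest benign point in all 10 panels, and the groups are apart for Cidea, Cox8b, Adrb3 and Otop1.

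Adrb3 encodes the beta-3 adrenergic receptor, which in mice is found mainly on adipocytes and starts the response to noradrenaline. The gene lies at chr8:27225776-27250616 on the minus strand (GRCm38, GENCODE M21). Its level was 158, 207, 153, 355, 128 and 343 CPM in benign samples 1 to 6 and 0.156, 0, 0.241, 0, 0.256 and 2.52 CPM in tumors 1 to 6. Every tumor lay far below every benign sample, and tumor 6, with 23 counts, was the highest of the tumors. Adrb3 fell by 8.54 on the log2 scale (SE 0.72, adjusted p = 5.7e-07, edgeR), and by 10.46 without tumor 6. Adrb3 was also the member that varied least within benign tissue, with an SD of 0.63 log2 CPM.

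Adrb1 went the other way. This gene encodes the beta-1 receptor, and it was at 10 to 30.1 CPM in benign tissue and 70.7 to 202 CPM in tumors, every tumor above every benign sample (log2 fold change 3.04, SE 0.31, adjusted p = 3.1e-06, edgeR). Per kilobase of exon, Adrb3 was above Adrb1 in every benign sample (37.8 to 105 CPM per kb, against 2.96 to 8.90), and Adrb1 was above Adrb3 in every tumor (20.9 to 59.8, against 0 to 0.748). Of the relatives of the members, 15 were tested, and 10 were lower and 2 higher in tumors, against 34.8% and 28.2% of all genes.

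Dio2 encodes the deiodinase that turns thyroxine into active thyroid hormone within brown adipocytes. It was low throughout, at 1.11, 0.597, 1.45, 21.6, 5.12 and 7.28 CPM in benign samples 1 to 6 and 0.778, 4.26, 2.65, 3.10, 4.86 and 0.549 CPM in tumors 1 to 6. The groups overlapped, and only benign samples 4, 5 and 6 lay above the highest tumor. The log2 fold change of -1.18 (SE 0.80) did not pass the test (adjusted p = 0.23, edgeR), and it was 0.27 without benign samples 3, 4 and 6 (adjusted p = 0.81, edgeR).

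Prdm16, a transcriptional regulator that directs precursors to a brown adipocyte fate, was at 12, 10.5, 3.96, 22.1, 4.74 and 16.9 CPM in benign samples 1 to 6. In tumors 1 to 6 it was at 0.467, 0.275, 4.45, 0.135, 1.02 and 8.23 CPM. Tumors 3 and 6 reached into the benign range, and the other 4 lay below it. The log2 fold change was -2.22 (SE 0.81, adjusted p = 0.0314, edgeR), -3.08 without tumor 6, and -1.82 without benign samples 3, 4 and 6, where it no longer passed (adjusted p = 0.150, edgeR).

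Ppara encodes a nuclear receptor that turns on genes of fatty acid oxidation. Its level was 2.41, 1.31, 1.98, 11.4, 1.5 and 6.04 CPM in benign samples 1 to 6 and 3.42, 2.75, 0.602, 2.56, 3.71 and 1.10 CPM in tumors 1 to 6. Benign samples 4 and 6 lay above all tumors, and the other benign samples lay within the tumor range. The log2 fold change of -0.79 (SE 0.60) did not pass the test (adjusted p = 0.28, edgeR). It was -0.15 without benign sample 4 and 0.49 without benign samples 3, 4 and 6, neither past the test. Its relatives differed, since Pparg, the regulator of adipocyte differentiation, fell by 7.43 on the log2 scale (adjusted p = 1.0e-08, edgeR) and Ppard by 0.37 (adjusted p = 0.0393, edgeR).

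Ucp1 encodes the heat-producing uncoupling protein itself and lies at chr8:83290352-83298452 on the plus strand (GRCm38, GENCODE M21). It was at 10.4, 0, 41.0, 1434, 3.37 and 217 CPM in benign samples 1 to 6. These values came from 56, 0, 311, 8052, 27 and 1225 counts. In tumors it was listed at 0 in 5 of 6 samples and at 6.91 CPM, or 54 counts, in tumor 5. Benign samples thus ran from 0 to a level that exceeded the next benign sample 6.60 times, and benign samples 2 and 5 lay below tumor 5. The log2 fold change was -7.91 (SE 2.06, adjusted p = 0.0053, edgeR), and an exact two-sided permutation of mean log2 CPM gave p = 0.0281.

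The Ucp1 call rested on few samples. It passed the expression filter in 5 benign samples and in tumor 5 alone. Without benign sample 4 its log2 fold change was -5.53 (adjusted p = 0.0150, edgeR), and without benign samples 3, 4 and 6 it was -1.88 and no longer passed (adjusted p = 0.386, edgeR). Its relative Ucp2, found in many tissues, did not pass the test (log2 fold change 0.28, SE 0.17, adjusted p = 0.18, edgeR). Ucp3, known from skeletal muscle and brown fat, was at 24.0 to 103 CPM in benign tissue and at or under 3 counts in every tumor, at least 133-fold lower.

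Cidea coats lipid droplets and is a common marker of brown and beige adipocytes. It was at 85.6, 18.9, 47.4, 873, 14.2 and 315 CPM in benign samples 1 to 6 and at 0.778, 2.75, 3.01, 1.35, 12.1 and 1.21 CPM in tumors 1 to 6. The groups did not overlap, though tumor 5 came close to benign sample 5. Cidea had a log2 fold change of -5.98 (SE 1.18, adjusted p = 8.2e-04, edgeR), -4.75 without benign sample 4, -6.85 without tumor 5 and -3.41 without benign samples 3, 4 and 6 (adjusted p = 0.00646, edgeR). Cidec, its relative in white adipocytes, fell by 7.96 (adjusted p = 3.3e-08, edgeR).

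Elovl3 lengthens very long fatty acids and rises in brown fat in the cold. It had 0, 2, 12, 703, 3 and 25 counts in benign samples 1 to 6, or 0, 0.239, 1.58, 125, 0.375 and 4.44 CPM. Tumors 3 and 5 had 2 counts and 1 count, and the other 4 had 0. Only benign samples 3, 4 and 6 were above the floor, so Elovl3 failed the expression filter and the edgeR test was not run on it. The benign mean was at least 53.1-fold higher than the floor that tumors did not exceed, and at least 3.20-fold higher without benign sample 4. Benign samples 1, 2 and 5 were at or under the floor, so no fold is given without benign samples 3, 4 and 6. The exact two-sided permutation test of mean log2 CPM gave a difference of -2.73 (p = 0.0303), which lost its call when any 1 of the 6 tumors was left out (exact p = 0.0519 to 0.0736). Among its relatives, Elovl6 fell by 2.29 (adjusted p = 6.9e-06, edgeR), Elovl7 rose by 1.67 (adjusted p = 6.6e-04, edgeR), and Elovl1 and Elovl5 did not pass the test (0.27 and 0.02).

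Otop1, a proton channel whose transcript is a marker of brown fat, was at 23.5, 8.12, 14.9, 141, 7.99 and 58.0 CPM in benign samples 1 to 6 and at 0.623, 0.413, 0, 2.29, 0.128 and 0.439 CPM in tumors 1 to 6. The groups did not overlap. Otop1 had a log2 fold change of -6.01 (SE 0.98, adjusted p = 1.9e-04, edgeR), and it kept its call without benign samples 3, 4 and 6 (-4.26, adjusted p = 0.00186, edgeR). It was -5.10 without benign sample 4 and -6.93 without tumor 4.

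Complex IV, the last enzyme of the respiratory chain, has subunits with a form for heart, muscle and brown fat (COX7A1 and COX8B) and a form for most other tissues (COX7A2 and COX8A). Cox8b was at 45.0, 19.8, 87.9, 523, 13.4 and 269 CPM in benign samples 1 to 6 and 8.09, 0.550, 0.722, 2.97, 0.895 and 5.93 CPM in tumors 1 to 6. All tumors lay below all benign samples. Cox8b had a log2 fold change of -5.65 (SE 1.06, adjusted p = 5.6e-04, edgeR), -4.77 without benign sample 4 and -2.96 without benign samples 3, 4 and 6 (adjusted p = 0.00969, edgeR).

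Cox7a1 behaved otherwise. Its level was 8.34, 5.25, 52.5, 177, 4.62 and 88.8 CPM in benign samples 1 to 6 and 20.4, 6.88, 5.66, 6.75, 11.5 and 14.5 CPM in tumors 1 to 6. Benign samples 3, 4 and 6 lay above every tumor, and benign samples 2 and 5 lay below every tumor. The log2 fold change was -2.35 (SE 0.84, adjusted p = 0.0286, edgeR), yet it was -1.54 without benign sample 4 (adjusted p = 0.102, edgeR). Without benign samples 3, 4 and 6 its sign turned, to 0.91, which did not pass the test (adjusted p = 0.121, edgeR), so no direction that holds for all benign samples was found for Cox7a1.

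A ratio of the 2 forms does not depend on library scaling. Cox8b made up 15%, 7.80%, 26.9%, 46.0%, 5.30% and 41.6% of the Cox8b and Cox8a counts in benign samples 1 to 6 and 0.340% to 3.34% in tumors. The mean log2 ratio of Cox8b to Cox8a (0.5 counts added to each) was -2.06 ± 1.61 in benign tissue and -6.45 ± 1.42 in tumors (SD, n = 6 each, exact two-sided permutation p = 0.00216, the smallest that 6 against 6 samples allow). Cox7a1 made up 7.84%, 5.55%, 33.4%, 42.4%, 4.53% and 30.6% of the Cox7a1 and Cox7a2 counts in benign samples 1 to 6 and 6.91% to 14.6% in tumors. The mean log2 ratio of Cox7a1 to Cox7a2 was -2.44 ± 1.75 and -3.25 ± 0.51 (SD, n = 6 each), a difference the exact permutation test did not call (p = 0.277). Without benign samples 3, 4 and 6 the Cox8b difference was -3.05 (exact p = 0.0238) and the Cox7a1 difference 0.75 (exact p = 0.107).

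**Figure D2:**
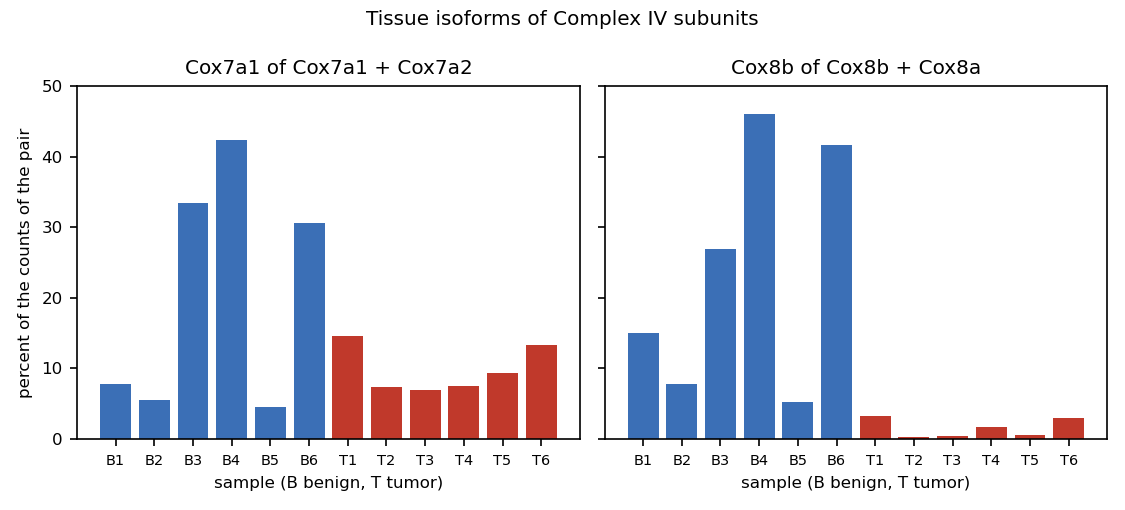
Bars give the tissue form as a percent of the counts of both forms, for Cox7a1 with Cox7a2 (left) and Cox8b with Cox8a (right), in benign samples (blue, B1 to B6) and tumors (red, T1 to T6). Cox8b is at 3.34% or less in every tumor, whereas Cox7a1 in tumors, at 6.91% to 14.6%, lies within the benign range of 4.53% to 42.4%.

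The levels in benign tissue, compared between genes per kilobase of exon (GENCODE M21), had medians of 185 CPM per kb for Cox8b, 59.6 for Cidea, 56.9 for Cox7a1, 54.0 for Adrb3 and 15.7 for Ucp1. Otop1 followed at 5.58, and Prdm16, Ppara, Dio2 and Elovl3 lay between 0.496 and 1.21 CPM per kb. The ranges of neighbours in this order overlapped widely: Cox8b spanned 37.1 to 1452 CPM per kb and Cidea 12.8 to 783. Ucp1 spanned 0 to 877 CPM per kb, so it was absent from the counts of benign sample 2 and among the highest members in benign sample 4. In tumors the highest median was that of Cox7a1 (17.2 CPM per kb), followed by Cox8b (5.37) and Cidea (1.84).

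Benign tissue differed more within itself for these genes than for most. The SD of log2 CPM over the 6 benign samples was above the median of all genes tested (0.33) for all 10 members, with a median of 1.92 over the members. Ucp1 had an SD of 4.38, the 13th largest of the 13191 genes tested, followed among members by Elovl3 (3.22), Cidea (2.31), Cox7a1 (2.24) and Cox8b (2.07). Adrb3 (0.63) and Prdm16 (0.96) varied least. A large benign SD was shared with muscle genes: the 6 tested ranked between 1 (Ckm) and 19 (Myl1) among all genes tested. Tumors varied less than benign samples for 8 of the 10 members, and the SD was larger in benign tissue for 56.7% of genes tested. The exceptions were Prdm16 and Adrb3. Elovl3 had at most 2 counts in any tumor, and Ucp1 had 0 in every tumor but tumor 5. The added counts limit the SD of such values, so a small tumor SD there does not measure uniform expression.

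The members shared an order. All 10 were highest in benign sample 4 and second in benign sample 6, an order that 11.9% of genes tested had, as did 7 of the 10 adipocyte genes and 32 of the 47 other thermogenic genes tested. The size of the step differed between members. Benign sample 4 exceeded benign sample 6 by 28.2 times for Elovl3, 6.60 times for Ucp1, 2.77 times for Cidea and 1.03 times for Adrb3, while the summed adipocyte genes differed 1.25 times and the muscle genes were lower in sample 4 (0.393 times). The muscle sum was highest in benign sample 6, then 3, then 4, and Ucp1 was 35 times higher in sample 4 than in sample 3. What muscle contributed to the order of the members was not tested. Below benign samples 4 and 6 the members diverged: benign sample 3, rich in muscle transcripts, came next for Ucp1, Elovl3, Cox7a1 and Cox8b, and last for Prdm16.

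**Figure D3:**
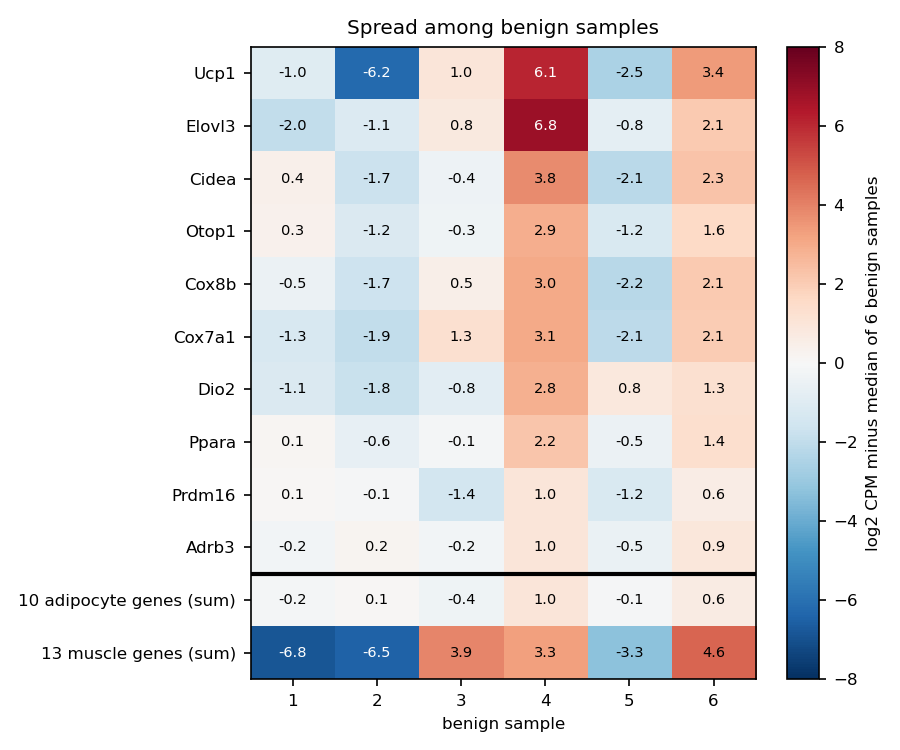
Each cell gives the log2 CPM of a gene in 1 benign sample minus that gene's median over the 6 benign samples (red above, blue below), for the 10 members and, under the line, for the summed 10 adipocyte and 13 skeletal muscle genes. Benign sample 4 is the reddest column for the members, benign sample 6 comes next, and the muscle sum is highest in sample 6.

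The genes whose benign profile lay nearest to that of Ucp1, by the root mean square difference of centred log2 CPM over 6 samples, were Fabp3 (1.76), Ank1 (1.92), Cpt1b (1.98), Eno3 (2.01), Des (2.18), Tuba8 (2.23), Cacna1s (2.23), Slc16a3 (2.24), Myom1 (2.24) and Myl1 (2.28). Fabp3, a fatty acid carrier, and Cpt1b, which brings fatty acids to mitochondria, serve both muscle and brown fat. Eno3, Des, Cacna1s, Myom1 and Myl1 are known from muscle. The nearest members were Elovl3 (2.18), Cox7a1 (2.23), Cidea (2.26) and Cox8b (2.33), so 4 genes outside the set lay nearer to Ucp1 than any member did. This distance weighs the size of the spread as well as the order of samples. Fabp3 and Cpt1b were highest in benign sample 4, as Ucp1 was. Eno3 and Ank1 were instead highest in sample 6 (2427 and 252 CPM, against 972 and 114 CPM in sample 4). The points share libraries, and the likeness is a description over 6 samples.

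**Figure D4:**
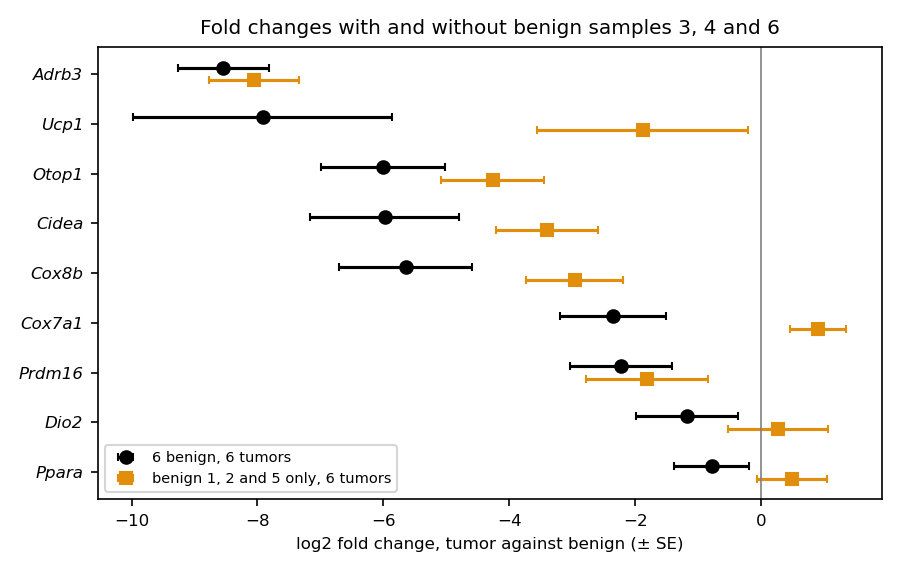
Points give the edgeR log2 fold change of tumors against benign tissue with its SE for the 9 members tested, with all 12 samples (black circles) and without benign samples 3, 4 and 6 (orange squares). Adrb3 moves little, Ucp1 goes from -7.91 to -1.88, and Cox7a1, Dio2 and Ppara cross to the right of 0.

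With benign samples 1, 2 and 5 alone, 4 members remained lower in tumors (Cidea, Cox8b, Adrb3 and Otop1), and 28.7% of all genes tested were lower in that fit. With the muscle score (mean log2 CPM of the 13 muscle genes) as a covariate, the same 4 members were lower, and 27.1% of genes were. Ucp1 (-1.87, adjusted p = 0.394, edgeR) and Prdm16 (-2.09, adjusted p = 0.136, edgeR) lost their calls there as well, and Cox7a1 had a log2 fold change of 1.12 (adjusted p = 0.297, edgeR). The first fit leaves out the 2 benign samples where all 10 members were highest and second, and the muscle score is high in those same samples. What muscle tissue contributed was therefore not tested by either fit. All 6 of the 13 muscle genes that passed the filter were lower in tumors. The muscle score and the group also share a direction, since the muscle sum was 35.2 CPM or more in every benign sample and 1.20 to 10.5 CPM in every tumor but tumor 5 (162 CPM).

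Transcripts of the adipocyte list, which does not separate white from brown fat, were lower in tumors as well. All 10 adipocyte genes were lower in tumors, each without overlap, with a median log2 fold change of -7.63. In a comparison chosen after seeing these values, member counts were divided by the summed counts of the 10 adipocyte genes, and by 2 other denominators (30 exact permutation tests in all). These denominators were lower in every tumor than in every benign sample, so a member that changed little rises in the ratio by construction. Dio2, Ppara and Cox7a1 were higher relative to adipocyte genes in tumors, by 5.08, 5.09 and 4.39 on the log2 scale (exact two-sided permutation p = 0.00216 each), and Prdm16 by 2.45 (exact p = 0.0108). Adrb3 was lower relative to them by a difference of -4.02 (exact p = 0.00216), or -2.57 without Pnpla2 (exact p = 0.00433) and -0.78 with Adipoq as the only denominator (exact p = 0.219). The lipase gene Pnpla2 made up 56.2% to 77.8% of the adipocyte sum in tumors and 9.33% to 12.9% in benign tissue. Ucp1, Cidea, Cox8b and Otop1 differed from the 10-gene sum by -1.28, 0.51, 0.48 and -0.24, none past 0.05 (exact p = 0.578, 0.610, 0.604 and 0.805), and relative to Adipoq alone Cidea, Cox8b and Otop1 were higher in tumors (3.75, 3.72 and 3.01, exact p = 0.0173, 0.00433 and 0.0216).

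Of 57 other genes of thermogenesis, 47 were tested, and 35 were lower and 10 higher in tumors (edgeR, adjusted p under 0.1), with a median log2 fold change of -2.30, where 34.8% of all genes tested were lower and 28.2% higher. Of the genes for the uptake and use of fatty acids, 22 of 23 were lower. The count was 19 of 23 without benign samples 3, 4 and 6, where 28.7% of all genes were lower, and 14 of 23 with the skeletal muscle score as a covariate, where 27.1% were. Fabp3 fell by 8.43, Lpl, which frees fatty acids from lipoproteins, by 7.58 and Pdk4, which holds back glucose oxidation, by 7.26, whereas Gk, glycerol kinase, rose by 1.49. Fabp3 was at 71.0, 280.4 and 121 CPM in benign samples 3, 4 and 6, the 3 with muscle transcripts, and at most 3.71 CPM in the other benign samples, and without them it fell by 3.63 (adjusted p = 0.0075, edgeR). In the receptor cascade 3 of 4 genes were lower: Pde3b and Adcy3, which break down and make cyclic AMP, fell by 4.63 and 3.62, and Prkar2b, a regulatory subunit of protein kinase A, by 3.63, while Gnas did not pass the test.

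Of the regulators of the brown fat program, 3 of 9 were lower, a share near that of all genes (34.8%), and 5 were higher (28.2% of all genes). Irf4 fell by 4.74, Ebf2, a regulator of brown adipocyte precursors, by 3.67 and Ppargc1b by 3.05. Ppargc1a, the coactivator that drives mitochondrial biogenesis, was at 4.12 to 30.7 CPM in benign tissue and 19.7 to 62.7 CPM in tumors and rose by 1.46 (SE 0.48, adjusted p = 0.0190, edgeR). Esrrg, a nuclear receptor that works with it, rose by 2.78 (adjusted p = 4.6e-07, edgeR) and Cebpb by 1.33. Zic1, a marker of classical brown fat, had 16 counts in benign sample 5, 2 in tumor 5 and 0 in the other 10 samples, so it was at 0 in benign sample 4. Lhx8, another such marker, had 6, 9, 32, 30, 59 and 41 counts in benign samples 1 to 6 and at most 3 in any tumor. Neither followed the order of Ucp1 in benign tissue, and neither passed the expression filter.

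Of the genes grouped here as effectors other than UCP1, 4 of 7 were lower and 3 higher, against 34.8% and 28.2% of all genes. The grouping does not mean that each of them makes heat. Kcnk3, a potassium channel, fell by 8.18, Gpd2, of the glycerol phosphate shuttle, by 2.78 and Ckb, a creatine kinase, by 2.33. Slc6a8, the creatine transporter, rose by 1.58, Alpl, a phosphatase of the creatine cycle, by 1.06 and Atp2a2, a calcium pump, by 0.64. Among secreted and beige genes, Nrg4 fell by 7.12, Cited1 by 6.18 and Epsti1 by 2.30, and S100b rose by 1.68. The Epsti1 fall rested on benign sample 1 (146 CPM). The other benign samples, at 6.04 to 13.1 CPM, overlapped the tumors, at 3.07 to 12.3 CPM. Slc27a2, a fatty acid transporter that missed the filter, had 214 counts in benign sample 4, 46 in sample 6, 4 to 12 in the other benign samples and 0 in every tumor.

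**Figure D5:**
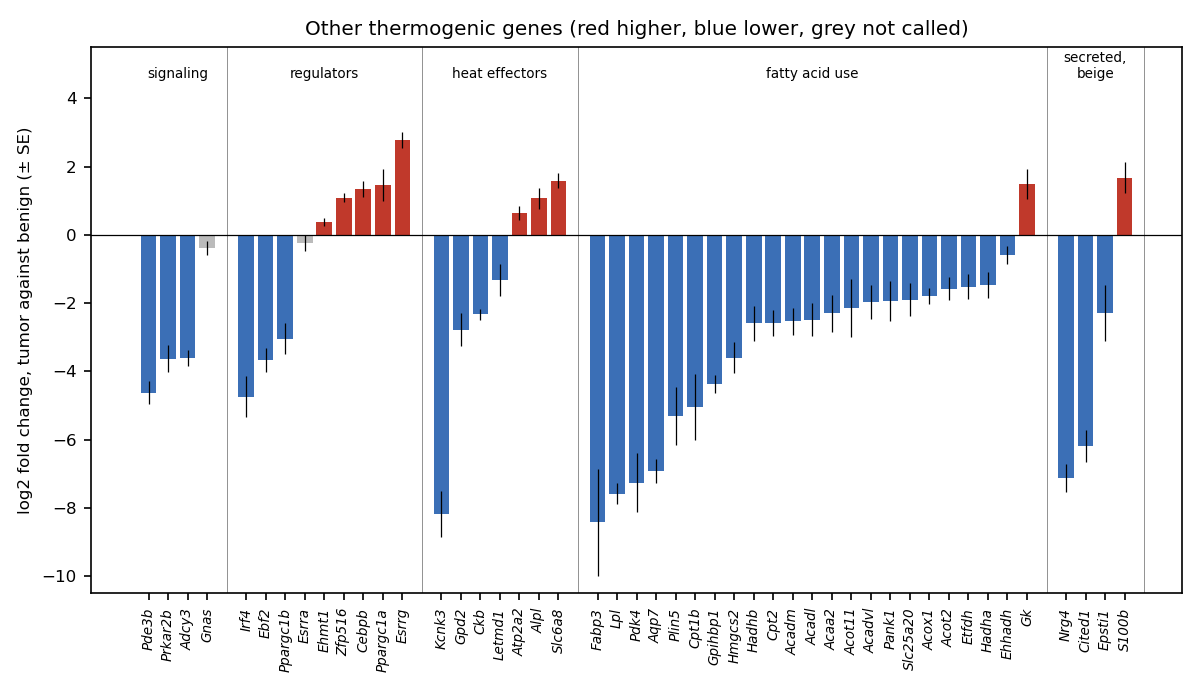
Bars give the edgeR log2 fold change of tumors against benign tissue with its SE for the 47 other thermogenic genes tested, grouped by role. Of the 23 genes of fatty acid use 22 point down, whereas regulators and the group labelled heat effectors point both ways.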

How the data were processed

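Samples were grouped by their labels. From poly A RNA read in pairs, the authors estimated expression with Salmon (mm10) and deposited whole-number counts per gene, unscaled. The submitters' notes also name DESeq2 and Trim Galore. Versions and the annotation are not given in the sources used here. Every column belonged to a sample (0 did not), and replicate pairs differed beyond sampling noise (chi-square per degree of freedom at least 12.5).

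Counts were compared with edgeR 4.0.16 in R 4.3.3: filterByExpr by group (minimum count 10, total 15), TMM scaling and the two-sided quasi-likelihood test, adjusted over 13191 genes, with a threshold of 0.1. Log2 CPM used 2 added counts. Bounds and floors cover counting error only. Scripts were tested on simulated data. Ratios and Elovl3 were compared by exact permutation. Alternatives were DESeq2 1.42.0, upper-quartile scaling, total counts, 2 other filters, a 0.05 threshold, a replicate block, a muscle covariate and leaving samples out.

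Members and gene lists were chosen with earlier results of these data known. The text names all members, most of their relatives, the marker lists as sums, the 10 profiles nearest to Ucp1 and, of the other thermogenic list, Ppargc1a, Zic1, Lhx8, Ebf2 and up to 3 called genes per role and direction with at least 5 CPM in the higher group. Slc27a2 was chosen after its values were seen. Some relatives are not reported here. Exon lengths came from GENCODE M21, which may differ from the authors' annotation.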

Additional observations from a re-analysis of the deposited data

Results flagged for a closer look

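Of 24 groups of values examined (each member, and each Complex IV ratio, within each group of 6), 2 held a sample far from the rest of its group. Chance gives about 1 in 20 such groups, so 2 of 24 is near that rate. Ucp1 in tumor 5 stood at 2.84 log2 CPM (54 counts), with the other 5 tumors at -1.86, the value of 0 counts. With 5 equal values any other value is flagged, so the rate of 1 in 20 does not hold there. Tumor 5 also had the most Cidea among tumors (95 counts) and the highest muscle sum (162 CPM, against at most 10.5 CPM), and whether these share a source was not tested. Adrb3 in tumor 6 stood at 1.49 log2 CPM (23 counts), with the next tumor at -0.91. Tumor 6 also had the highest adipocyte sum among tumors (375 CPM, against 239.7 to 289.5 CPM), and its part in the Adrb3 value was not tested.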

How the results depend on the processing

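The 7 members lower in tumors were the same 7 under DESeq2, upper-quartile scaling, total counts and a threshold of 0.05. The count was 8 with at least 1 count in total, which adds Elovl3 (log2 fold change -8.0, adjusted p = 0.00545, edgeR), 1 with at least 10 counts in every sample, where Cox7a1 was the only member tested and 28.9% of genes were lower, and 4 both without benign samples 3, 4 and 6 together and with the skeletal muscle score as a covariate. Leaving out 1 sample at a time gave 6 to 7, and the count of members higher in tumors was 0 throughout. Of all genes tested, 33.4% were lower with at least 1 count in total, and 31.5% to 34.3% with 1 sample left out. Against the 10 adipocyte genes, the same without Pnpla2, and Adipoq alone, settings chosen after seeing the data, 1, 1 and 0 members were lower and 4, 5 and 8 higher at an exact permutation p under 0.05. These denominators fell in tumors, so a member that changed little counts as higher there. Of the other thermogenic genes, 23 were lower with at least 10 counts in every sample (36 tested), 31 were lower and 10 higher without benign samples 3, 4 and 6, 26 were lower and 9 higher with the muscle covariate, and 33 to 36 were lower and 10 higher with 1 sample left out.

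The sign turned without benign samples 3, 4 and 6, and with the muscle covariate, for Dio2 (0.27 and 1.09), Cox7a1 (0.91 and 1.12), Ppara (0.49 and 0.63) and Cox7a2 (0.043 and 0.11). It turned for Ucp2 with the covariate (-0.061), for Elovl5 without benign sample 3, benign sample 5 or tumor 5 (-0.025, -0.014 and -0.047, in a range up to 0.15), and for the Cox7a1 to Cox7a2 ratio without benign samples 3, 4 and 6 (0.75). The cause was not tested. With 1 sample left out, that ratio difference ran from -1.20 to -0.41 and the Cox8b to Cox8a difference from -4.81 to -4.03. The Elovl3 difference ran from -3.32 to -1.55, and lost its call with any 1 tumor left out (exact permutation p = 0.0519 to 0.0736). The median SD of the members among benign samples ran from 1.48 to 2.10. Ucp1 had a fitted log2 fold change of -13.95 without tumor 5, where every tumor is at 0, which is no bound.

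The replicate numbers did not pair the samples, which came from different mice (correlations of deviations of -0.12 to 0.10). With the replicate block 6 members were lower, Cox7a1 having lost its call (-1.29, adjusted p = 0.307, edgeR), and 32 other thermogenic genes were. Of all genes tested in that fit, 32.1% were lower. Depth limits the members of few counts: the lowest sample held 5 counts of Dio2, 5 of Ppara, 1 of Prdm16 and 0 of Elovl3.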
